A study of Homo sapiens with 36 samples.

Results

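DKK1, TNFRSF19 and 8 further genes of the Wnt pathway were followed through 3 related ovarian cancer cell populations. The 10 genes were chosen by name, out of 57820 genes in the count table, and all 10 were found in it. DKK1 and TNFRSF19 were put on the list because their transcripts were lost in one of the populations, so that loss is described here and carries no test. The other members were WNT5A, a ligand, FZD7, a receptor, SFRP1, a secreted inhibitor, CTNNB1, AXIN2 and NKD1, which act in the cytoplasm, and TCF7 and LEF1, which act in the nucleus. They were read beside the rest of a list of 103 Wnt pathway genes, sorted by role.

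Wnt proteins are secreted ligands that bind Frizzled receptors together with the co-receptors LRP5 and LRP6. In the canonical branch, binding keeps β-catenin, the product of CTNNB1, from being destroyed by a complex built on axin, and β-catenin then acts in the nucleus with TCF/LEF factors. Several target genes, AXIN2 and NKD1 among them, encode inhibitors of the pathway itself, and secreted proteins such as DKK1 and SFRP1 block it outside the cell.

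The cells were A2780, a human ovarian cancer line. The sensitive parental cells (wt) were compared with an isogenic line made resistant by long exposure to cisplatin (cis), and with a population that grew out of the cis cells under serine and glycine deprivation (cis SSP). The growth conditions were complete medium alone, with carboplatin (carbo), without serine and glycine (-SG) and without both amino acids but with carboplatin (-SG carbo), so that 12 conditions were sequenced in 3 libraries each. The lines were maintained in RPMI with serum. For deprivation experiments the study used home-mixed RPMI with dialysed serum, with or without the amino acids. Which of these was the complete medium of the sequenced cells is not stated. The labels give the carboplatin dose as 6 M, while the other assays of the study used micromolar doses. In the study's wording the libraries within a condition are technical replicates. Each p-value below therefore measures the spread between such libraries and not that between independent cultures. Each line is 1 cell population, and line cannot be told apart from anything else that varied with it, such as its passage history.

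The 36 libraries held between 13074937 and 20441582 counts on genes, with a median of 17663485. Levels are given as CPM, read counts normalised to the TMM-scaled library size. The mesenchymal marker VIM was at 1522 CPM or more in every library, while PAX8, MUC16, PTPRC, CD3E, CD68 and HBB stayed at 0.631 CPM or less. EPCAM did not pass 2.31 CPM, KRT8 6.55, KRT19 7.92, FN1 2.91 and WT1 1.38, so most epithelial and ovarian carcinoma markers were near 0. KRT18 had its highest median in cis cells, at 29.3 CPM, and CDH2 ran from 9.68 to 104 CPM in cis cells and from 812 to 1395 CPM in cis SSP cells. The endothelial marker PECAM1 was not matched to a gene identifier. Libraries 25 (cis SSP) and 32 (cis SSP -SG) stood apart. Relative to the other libraries of their condition, their counts fell with exon length by 0.40 and 0.41 on the log2 scale per doubling of length, and in the 30 libraries of the conditions without them this slope lay between -0.15 and 0.08. Fold changes of the members and named genes that use them are also given without them.

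DKK1 (ENSG00000107984.5) encodes Dickkopf-1, a secreted protein that binds LRP5 and LRP6 and so blocks canonical signalling. The gene lies on the plus strand at chr10:54074041-54077802 of GRCh37, the build of the counts, and overlaps the antisense gene PRKG1-AS1. TNFRSF19 (ENSG00000127863.11), also called TROY, encodes a receptor of the tumour necrosis factor superfamily and is a known target of β-catenin in some tissues. It lies on the plus strand at chr13:24144509-24250243 with no overlapping gene. The 250 bases before each annotated start of both genes are shown because both transcripts were lost together in cis SSP cells. They were taken from a RefSeq table on GRCh38.p14, a newer build than that of the counts, at chr10:52314031-52314280 for DKK1 and at chr13:23570162-23570411 and chr13:23579110-23579359 for the upstream and downstream start of TNFRSF19, all on the plus strand, 5′ to 3′. Capitals mark CTTTGA, the core of TCF/LEF sites, or its reverse complement TCAAAG.
DKK1: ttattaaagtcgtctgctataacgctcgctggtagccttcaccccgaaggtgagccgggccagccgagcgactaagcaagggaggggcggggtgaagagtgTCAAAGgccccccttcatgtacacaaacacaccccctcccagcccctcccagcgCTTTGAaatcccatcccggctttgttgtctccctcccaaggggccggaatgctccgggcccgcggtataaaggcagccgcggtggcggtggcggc
TNFRSF19, upstream start: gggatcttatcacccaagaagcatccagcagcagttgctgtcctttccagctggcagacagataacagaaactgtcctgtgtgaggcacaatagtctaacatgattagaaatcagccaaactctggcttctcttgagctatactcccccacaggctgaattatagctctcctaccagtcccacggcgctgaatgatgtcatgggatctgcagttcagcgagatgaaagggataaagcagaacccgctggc
TNFRSF19, downstream start: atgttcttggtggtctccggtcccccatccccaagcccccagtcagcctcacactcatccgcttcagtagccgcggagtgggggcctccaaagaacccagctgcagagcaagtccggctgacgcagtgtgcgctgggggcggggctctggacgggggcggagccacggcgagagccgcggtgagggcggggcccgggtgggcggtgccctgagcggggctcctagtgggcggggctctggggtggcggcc
The DKK1 sequence held the motif on each strand, at 149 and 95 bases before the start. Neither TNFRSF19 sequence held it. Of 35116 promoters of 300 bases in the table, 12.9% held CTTTGA on either strand. A promoter was given for 6 of the 10 members, and DKK1 was the only one of the 6 with the motif, which says nothing of whether a factor binds there.

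In wt cells the DKK1 libraries read 209.6, 215 and 209 CPM. In cis cells they read 455, 438 and 471 CPM. In cis SSP cells they read 0.880, 0.483 and 0.656 CPM, from 12, 8 and 12 counts. The 3 groups did not overlap, with cis above wt and cis SSP near 0. Per kilobase of exon, DKK1 ranked 269 of 15426 detected protein-coding genes in wt cells, 101 of 14991 in cis cells and 11128 of 15155 in cis SSP cells. The summed counts of 23637 in cis and 32 in cis SSP cells gave a 689-fold lower level in cis SSP cells, with a 95% counting interval from 488 to 1007 that covers counting error only. Without library 25 it was 792-fold lower (513 to 1297). In bulk RNA, fewer expressing cells and less RNA per cell cannot be told apart.

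The loss of DKK1 was seen in each of the other media. Under carboplatin the cis libraries read 451, 445 and 458 CPM and those of cis SSP 0.467, 0.548 and 0.115. Without serine and glycine they read 303, 294 and 290.4 against 0.354, 0.442 and 0.111 CPM. With both they read 282, 261 and 276 against 0.469, 0.490 and 0.376 CPM. None of the 12 cis SSP libraries came near any cis library. The ratios of cis to cis SSP were 1183 under carboplatin (interval 774 to 1911), 1013 without serine and glycine (614 to 1810; 1241 without library 32) and 617 with both (399 to 1010).

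TNFRSF19 was low in wt cells, high in cis cells and nearly absent from cis SSP cells. The wt libraries read 35.8, 37.8 and 34.97 CPM. The cis libraries read 552, 553 and 557 CPM. The cis SSP libraries read 0.0734, 0.422 and 0.164 CPM, from 1, 7 and 3 counts. The groups were again fully separate, with wt between the other 2. Its rank per kilobase was 5532 in wt, 236 in cis and 12835 in cis SSP cells. Summed counts of 28830 and 11 put cis 2444-fold above cis SSP cells (1366 to 4896), and 1933-fold without library 25 (1051 to 4031).

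The other media gave TNFRSF19 the same pattern. Under carboplatin, cis libraries read 433, 442 and 440.0 CPM and cis SSP libraries 0.208, 0.274 and 0.287. Without serine and glycine the values were 324, 329.5 and 321 CPM against 0.152, 0.147 and 0.554. With both, they were 264, 248 and 261 CPM against 0.268, 0 and 0.188. In 1 library of cis SSP -SG carbo no read fell on the gene. The ratios of cis to cis SSP were 1720 under carboplatin (1025 to 3147), 1113 without serine and glycine (675 to 1989; 945 without library 32) and 1662 with both (806 to 4134).

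Sorted by fitted fold change, TNFRSF19 had the lowest value of 13714 tested genes in complete medium, of 13882 under carboplatin and of 14342 without serine and glycine, and the next to lowest of 14313 with both. DKK1 held rank 3 from the bottom in complete medium, rank 2 under carboplatin and rank 3 in both deprived media. These ranks describe the contrast on which both genes were chosen. Without library 25 the fitted log2 difference in complete medium was -9.60 for DKK1 and -10.87 for TNFRSF19, and without library 32 the values without serine and glycine were -10.29 and -9.91, all of which rest on few counts in cis SSP cells.

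**Figure D1:**
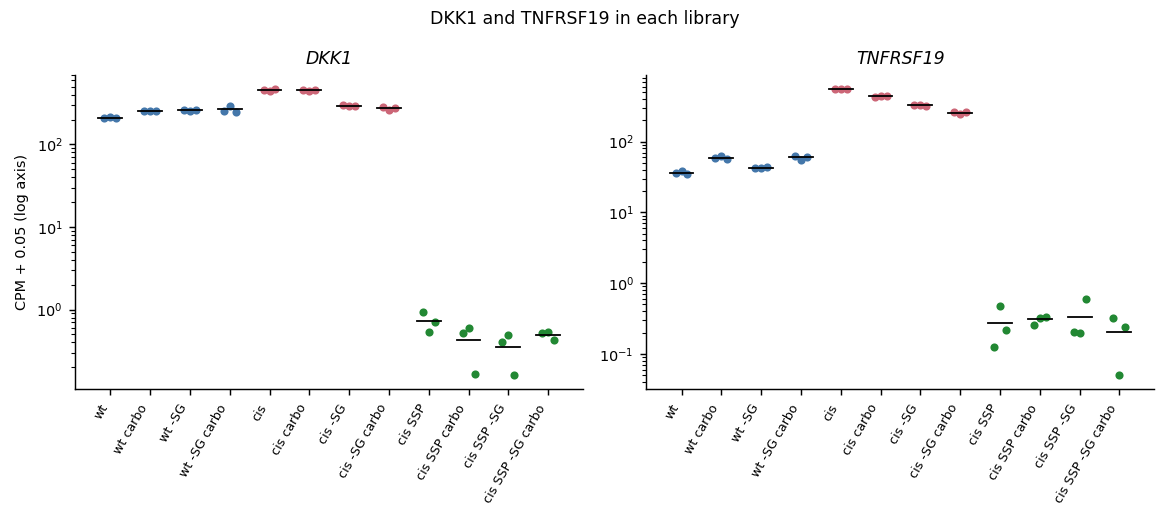
DKK1 (left) and TNFRSF19 (right) in each of the 36 libraries, as CPM + 0.05 on a log axis, by condition, with wt in blue, cis in red and cis SSP in green; black lines are means of 3 libraries. All 12 cis SSP libraries lie below 1 CPM for both genes, while wt libraries lie at 209 CPM or more for DKK1 and 34.97 CPM or more for TNFRSF19.

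Between wt and cis cells both genes were higher in the resistant line, in a comparison that shares its cis libraries with the choice of the genes. In complete medium DKK1 was higher in cis by 1.09 on the log2 scale (SE 0.0255, adjusted p = 2.22e-35) and TNFRSF19 by 3.92 (SE 0.0307, adjusted p = 1.98e-54), by the quasi-likelihood test of edgeR, with p adjusted by Benjamini-Hochberg over all genes tested. A gene is called below where that adjusted p is under 0.05. The DKK1 difference was smaller in the other media. It was 0.82 under carboplatin and 0.23 without serine and glycine, both called, and 0.07 with both (95% interval -0.10 to 0.24, edgeR adjusted p = 0.432), where the groups overlapped. That overlap came from library 11 of wt -SG carbo alone, at 293 CPM, while the other libraries of that condition read 255 and 249 CPM. With each library left out, this DKK1 difference ran from 0.02 to 0.13 and was called in 1 of 6 fits. TNFRSF19 differed by 2.87, 2.98 and 2.13 in these media, with every cis library above every wt library. Of all tested genes, 81.9% were called between the lines under carboplatin, 81.1% without serine and glycine and 74.2% with both.

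Both genes moved in opposite directions in wt and cis cells when serine and glycine were withdrawn. In wt cells DKK1 libraries read 263, 255 and 265 CPM without the amino acids, all above those in complete medium, and the gene rose by 0.31 (SE 0.0275, edgeR adjusted p = 1.22e-08). In cis cells it fell by 0.56 (SE 0.0290, edgeR adjusted p = 4.07e-22), with no overlap. The difference between the responses, tested as an interaction, was -0.85 (SE 0.0396, edgeR adjusted p = 3.30e-20). TNFRSF19 read 42.2, 42.0 and 43.8 CPM in wt -SG libraries and rose by 0.24 (SE 0.0482, edgeR adjusted p = 0.000350), although 1 fit over the 36 libraries gave an adjusted p of 0.173. In cis cells it fell by 0.71 (SE 0.0270, edgeR adjusted p = 3.04e-27), and the responses differed by -0.93 (SE 0.0462, edgeR adjusted p = 2.18e-19). The fall was seen again among carboplatin-treated cis cells, by -0.69 for DKK1 and by -0.73 for TNFRSF19, both called, as were 70.2% of all tested genes. In wt cells under carboplatin neither gene was called for deprivation, with differences of 0.06 and 0.01, in a comparison that called 0.72% of all tested genes.

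Carboplatin raised both genes in wt cells. DKK1 libraries read 254, 251 and 254 CPM under the drug, and the gene rose by 0.27 (SE 0.0229, edgeR adjusted p = 5.23e-29). TNFRSF19 libraries read 59.1, 61.7 and 56.4 CPM and the gene rose by 0.71 (SE 0.0445, edgeR adjusted p = 1.07e-49). Neither gene overlapped its untreated libraries. In cis cells DKK1 differed by 0.00 (95% interval -0.05 to 0.06) and TNFRSF19 fell by 0.33 (SE 0.0250, edgeR adjusted p = 6.85e-11), a call lost in 1 fit over the 36 libraries, with an adjusted p of 0.121. The responses of the lines differed by -0.26 for DKK1 (SE 0.0344, edgeR adjusted p = 2.01e-09), lost in 1 fit over the 36 libraries with an adjusted p of 0.148, and by -1.03 for TNFRSF19 (SE 0.0447, edgeR adjusted p = 1.23e-28).

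Across the 12 conditions DKK1 had its highest mean in cis cells (455 ± 16.8 CPM, SD, n = 3), followed by cis carbo (452 ± 6.37), whose libraries overlapped those of cis. The cis -SG and cis -SG carbo conditions came next, at 296 ± 6.30 and 273 ± 11.1, then wt -SG carbo (266 ± 24.3), wt -SG (261 ± 5.29), wt carbo (253 ± 1.93) and wt (211 ± 3.39). From cis -SG carbo through wt -SG carbo to wt -SG, the libraries of each condition overlapped those of the next. Library 11 alone, of wt -SG carbo, made the overlap with cis -SG carbo. The cis SSP conditions filled the last 4 places, with means between 0.302 and 0.673 CPM. Each overlapped the next, while the cis SSP libraries in complete medium all lay above those of cis SSP -SG, a difference not tested because DKK1 did not pass the filter on low counts there. TNFRSF19 ran from cis (554 ± 2.68 CPM) through cis carbo (439 ± 4.70), cis -SG (325 ± 4.37) and cis -SG carbo (257 ± 8.16) to wt -SG carbo (59.9 ± 4.01), wt carbo (59.1 ± 2.62), wt -SG (42.7 ± 0.999) and wt (36.2 ± 1.43). Only wt -SG carbo and wt carbo overlapped among these 8, and the 4 cis SSP conditions, at 0.152 to 0.284 CPM, overlapped with each other.

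The genes around DKK1 were low in cis SSP cells too. Of 13 annotated genes within 1 Mb, 4 were tested in complete medium and 3 were called lower in cis SSP than in cis cells, against 13.3% of all tested genes called lower. Those 3 passed the filter on low counts through cis cells alone, so they could enter only as lower. The share is therefore no measure for them, and the locus was chosen on this same contrast. PRKG1, which encodes a cGMP-dependent protein kinase, had 2351 summed counts in cis cells and 1 in cis SSP cells, a ratio of 2192 (95% counting interval 393 to 86617). PRKG1-AS1, on the strand opposite to DKK1, had 296 and 7 counts (39.4, 18.9 to 98.9). MBL2, which encodes mannose-binding lectin, had 58 and 2 counts (27.04, 7.16 to 229). CSTF2T, a gene for an mRNA cleavage factor that lies within the span of PRKG1, read 17.7 CPM in cis and 22.9 CPM in cis SSP cells and was not called (edgeR adjusted p = 0.0861). Between wt and cis cells 1 of these 4 neighbours, PRKG1-AS1, was higher in cis and 3 were lower, unlike DKK1 itself. PRKG1 was lower by -0.23 (edgeR adjusted p = 1.00e-05), from 52.3 to 45.2 CPM.

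Around TNFRSF19, 46 genes were annotated within 1 Mb, 7 were tested in the same comparison and 6 were called lower in cis SSP cells, against 13.3% of all tested genes. This locus too was chosen on the same contrast, so that share is no measure for it. The neighbours named here were chosen after their values were seen. MIPEP, which encodes a mitochondrial peptidase, had 2682 counts in cis and 849 in cis SSP cells, a ratio of 2.95 (2.73 to 3.19). SPATA13, for a guanine nucleotide exchange factor, had 810 and 325 counts (2.32, 2.04 to 2.65). TATDN2P3 and LINC00327 had 114 and 73 counts in cis cells and none in cis SSP cells, which makes them at least 35.4-fold and 22.7-fold lower against a floor of 3 counts over the group. Both passed the filter on low counts through cis cells alone, so they could enter only as lower. PARP4 read 98.3 and 75.8 CPM and was not called (edgeR adjusted p = 0.410). Without library 25 the ratios were 1576 for PRKG1, 49.6 for PRKG1-AS1, 19.4 for MBL2, 3.07 for MIPEP and 2.16 for SPATA13, TATDN2P3 and LINC00327 were at least 25.5-fold and 16.3-fold lower, and the cis SSP means of CSTF2T and PARP4 were 24.4 and 93.1 CPM. Between wt and cis cells 8 of these neighbours were tested, and 7 were higher and 1 lower in cis cells, against 39.4% of all tested genes called higher. SPATA13 and TATDN2P3, at 0.251 and 0.0544 CPM in wt cells, passed the filter through cis cells and could enter only as higher. The region was also chosen around a gene picked with the same cis libraries, so the share is no measure for it. Without serine and glycine, 3 of 4 neighbours of DKK1 and 6 of 7 of TNFRSF19 were again called lower in cis SSP cells, where 23.2% of all tested genes were. Neighbours with almost no counts in cis SSP cells again passed the filter through cis cells, so this share is no measure for them.

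**Figure D2:**
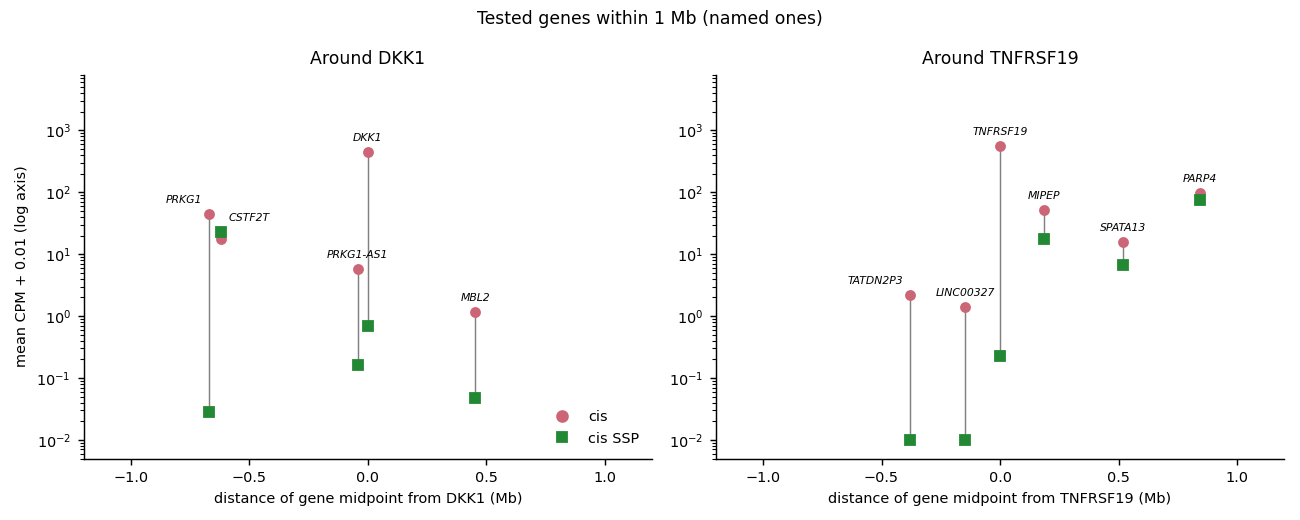
The named tested genes within 1 Mb of DKK1 (left) and TNFRSF19 (right), by distance of the gene midpoint in Mb, with the mean CPM + 0.01 on a log axis in cis (red circles) and cis SSP cells (green squares) in complete medium, joined by a line. The cis SSP value lies below the cis value for DKK1, TNFRSF19 and each neighbour drawn apart from CSTF2T.

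The genes whose condition means were most like those of DKK1 were SLITRK3 (Pearson r = 0.993 over 12 conditions), RHOBTB3 (0.992) and ECHDC1 (0.991), among 11932 genes on the scale of log2(CPM + 1). TNFRSF19 was most like ARFGEF1 (0.988), OPLAH (0.985) and KLF7 (0.980). DKK1 and TNFRSF19 had r = 0.955 with each other. All of these values come from the same 36 libraries and describe likeness only. SLITRK3 read 3.45 CPM in wt, 4.76 in cis and 0.0182 in cis SSP cells, and KLF7 5.91, 21.1 and 0.416 CPM.

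Among the ligands, WNT5A, which mostly acts through β-catenin-independent branches, did not pass 0.778 CPM in any library and never passed the filter on low counts. In cis cells it had 0, 3 and 1 counts in complete medium and 5, 8 and 11 without serine and glycine. The deprived libraries lay above those in complete medium, with a ratio of summed counts of 5.34 and a 95% counting interval from 1.83 to 21.2. With no filter on low counts the edgeR adjusted p of this difference was 0.00189, and that of the same difference among carboplatin-treated cis cells 0.00154. In wt and cis SSP cells no condition mean passed 0.164 CPM.

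FZD7 encodes a Frizzled receptor. It lies at chr2:202898578-202903164 and was highest in wt cells, with libraries at 68.6, 73.2 and 63.8 CPM. The cis libraries read 34.03, 33.9 and 36.2 CPM. The cis SSP libraries read 50.6, 49.2 and 47.0 CPM. The 3 groups did not overlap, and cis SSP lay between the other 2. FZD7 was lower in cis than in wt cells by -0.998 on the log2 scale (SE 0.0485, edgeR adjusted p = 2.46e-22) and higher in cis SSP than in cis cells by 0.48 (SE 0.0892, edgeR adjusted p = 0.00963). The second call was lost without the first cis library (adjusted p = 0.0659) or the second (0.0661) and stood without library 25 (0.48, edgeR adjusted p = 2.96e-09).

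Deprivation raised FZD7 in both wt and cis cells. The wt -SG libraries read 77.3, 85.4 and 81.2 CPM, a rise of 0.25 (SE 0.0478, edgeR adjusted p = 0.000345). The cis -SG libraries read 53.3, 58.3 and 54.7 CPM, a rise of 0.73 (SE 0.0499, edgeR adjusted p = 7.71e-18). The rise was larger in cis cells by 0.50 (SE 0.0692, edgeR adjusted p = 1.35e-07). In cis SSP cells the deprived libraries, at 49.6, 61.9 and 53.8 CPM, overlapped those in complete medium and the gene was not called (0.18, 95% interval -0.12 to 0.47, and 0.11 without both libraries 25 and 32). Without serine and glycine the cis and cis SSP libraries of FZD7 overlapped, with a difference of -0.08 that was not called. Without library 32 it was -0.15 and called (edgeR adjusted p = 0.00617). Under carboplatin FZD7 differed from untreated cells by 0.04 in wt and 0.09 in cis cells, and neither was called.

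SFRP1 encodes a secreted Frizzled-related protein that binds Wnt ligands. It lies at chr8:41119481-41166992 and was near 0 in wt cells, where the libraries in complete medium held 2, 1 and 1 counts. The cis libraries held 34, 29 and 49 counts, or 2.22, 1.55 and 2.73 CPM. The cis SSP libraries read 4.99, 6.94 and 7.98 CPM. The cis libraries lay above those of wt, and those of cis SSP above those of cis, with no overlap. The ratio of summed counts of cis to wt was 29.8 (95% counting interval 11.3 to 111) in complete medium, 18.2 (8.05 to 50.7) under carboplatin, 47.3 (23.8 to 110) without serine and glycine and 94.5 (32.1 to 461) with both. All 4 differences were called. In each, SFRP1 passed the filter on low counts through the cis libraries alone and could be called only as higher. In cis SSP cells SFRP1 was higher than in cis cells by 1.61 (SE 0.278, edgeR adjusted p = 0.00752), and by 1.81 without library 25.

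SFRP1 rose in cis cells on deprivation. The cis -SG libraries read 7.39, 6.89 and 6.45 CPM, all above those in complete medium, by 1.74 (SE 0.153, edgeR adjusted p = 4.82e-14), and the rise among carboplatin-treated cis cells was 1.62 (SE 0.155, edgeR adjusted p = 2.88e-07). The cis SSP -SG libraries read 6.33, 5.74 and 5.93 CPM, and SFRP1 was not called against cis -SG cells (-0.27, 95% interval -0.56 to 0.02) or against cis SSP cells in complete medium (-0.14, -0.67 to 0.38). Without library 32 the first difference was -0.22, and without both libraries 25 and 32 the second was -0.27, neither called. Together, cis cells without the amino acids and cis SSP cells in either medium had means between 6.00 and 6.91 CPM. The comparisons of cis SSP and of cis -SG with cis share the cis libraries, and the values are given side by side.

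CTNNB1, at chr3:41236232-41301587, was the most abundant member after DKK1 in wt cells per kilobase of exon, at 34.5 CPM per kb against 95.0. The wt libraries read 398, 409.6 and 409.6 CPM. The cis libraries read 319, 308 and 341 CPM. The cis SSP libraries read 387, 359 and 349.5 CPM. The cis libraries lay below all of the others. CTNNB1 was lower in cis than in wt cells by -0.35 (SE 0.0265, edgeR adjusted p = 2.69e-14), and between -0.57 and -0.50 in the other media, all called. Against cis cells, cis SSP cells were higher by 0.16 in complete medium, which was not called (95% interval -0.07 to 0.39, edgeR adjusted p = 0.253). Without library 25 the value was 0.15 and the adjusted p 0.000266, and 1 fit over the 36 libraries gave 0.18 with an adjusted p of 0.00970.

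CTNNB1 was higher in cis SSP than in cis cells in each of the other media. The difference was 0.28 under carboplatin (SE 0.0258, edgeR adjusted p = 1.96e-10), 0.41 without serine and glycine (SE 0.0914, edgeR adjusted p = 0.0119) and 0.36 with both (SE 0.0328, edgeR adjusted p = 1.37e-07). The value without serine and glycine lost its call in the 3 fits that left out a cis -SG library, with adjusted p from 0.0521 to 0.0697, and was 0.40 without library 32 (edgeR adjusted p = 3.70e-17). Deprivation lowered CTNNB1 slightly in cis cells, by -0.12 (SE 0.0324, edgeR adjusted p = 0.00162), and gave no call in wt cells (0.04, 95% interval -0.02 to 0.09). Carboplatin raised it by 0.16 in wt cells (SE 0.0193, edgeR adjusted p = 8.96e-16) and the value in cis cells was -0.04.

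AXIN2, a scaffold of the complex that destroys β-catenin and a widely used canonical target, lies at chr17:63524681-63557766. Its levels in complete medium were close in the 3 lines. The wt libraries read 5.42, 5.39 and 4.97 CPM. The cis libraries read 5.48, 5.67 and 4.67 CPM. The cis SSP libraries read 5.13, 5.19 and 5.30 CPM. All 3 groups overlapped, and neither cis against wt (-0.02, 95% interval -0.27 to 0.24) nor cis SSP against cis (-0.03, -0.35 to 0.28, and 0.01 without library 25) was called.

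Carboplatin lowered AXIN2 in wt and cis cells, and deprivation lowered it in cis cells. Under carboplatin the wt libraries read 2.16, 2.56 and 2.22 CPM, a fall of 1.18 on the log2 scale (SE 0.156, edgeR adjusted p = 2.47e-13). The cis carbo libraries read 3.78, 3.63 and 3.66 CPM, lower by -0.50 (SE 0.140, edgeR adjusted p = 0.0113), a call lost with DESeq2 (adjusted p = 0.109) and without the second cis library (0.0632). The response in cis cells was weaker by 0.69 (SE 0.208, edgeR adjusted p = 0.00369). On deprivation the wt libraries read 5.17, 5.94 and 6.05 CPM and overlapped those in complete medium, with no call. The cis -SG libraries read 3.01, 3.13 and 2.49 CPM, a fall of 0.81 (SE 0.146, edgeR adjusted p = 3.30e-06). The interaction was -0.91 (SE 0.186, edgeR adjusted p = 7.64e-05). In cis SSP -SG libraries AXIN2 read 3.64, 3.24 and 4.54 CPM, with a difference of -0.44 from complete medium that was not called (95% interval -0.88 to 0.00). It was called in 1 fit over the 36 libraries (edgeR adjusted p = 0.0211) and not with both libraries 25 and 32 left out (-0.35, edgeR adjusted p = 0.105). The cis SSP -SG libraries all lay above those of cis -SG, by 0.35, which was not called (95% interval -0.11 to 0.80), and which was called in 1 fit over the 36 libraries (0.41, edgeR adjusted p = 0.0104) and without library 32 (0.45, edgeR adjusted p = 0.0165).

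NKD1, which binds Dishevelled and dampens signalling, lies at chr16:50582307-50683160. Its libraries read 6.86, 7.60 and 8.11 CPM in wt cells. They read 9.13, 9.89 and 8.95 CPM in cis cells. They read 4.62, 5.73 and 5.74 CPM in cis SSP cells. The cis libraries were the highest and those of cis SSP the lowest, with no overlap. NKD1 was higher in cis than in wt cells by 0.29 (SE 0.101, edgeR adjusted p = 0.00898), a call lost with DESeq2 (adjusted p = 0.0773) and without the first wt library (0.0787). It was lower in cis SSP than in cis cells by -0.81 (SE 0.144, edgeR adjusted p = 0.00811), and by -0.69 without library 25 (edgeR adjusted p = 7.76e-06). The same difference was -0.53 under carboplatin, -0.95 without serine and glycine (-0.81 without library 32) and -0.73 with both, all called, where 69.2% of all tested genes were called under carboplatin and 73.8% with both.

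Like AXIN2, NKD1 fell under carboplatin in wt cells. The wt carbo libraries read 4.97, 4.27 and 3.98 CPM, a fall of 0.76 (SE 0.121, edgeR adjusted p = 1.12e-09). The cis carbo libraries, at 11.01, 8.24 and 9.43 CPM, overlapped those without the drug and NKD1 was not called (0.06, 95% interval -0.15 to 0.27). The responses differed by 0.83 (SE 0.161, edgeR adjusted p = 1.14e-05). Among deprived wt cells carboplatin lowered NKD1 by -0.45 and AXIN2 by -1.56, both called, as were 68.9% of all tested genes. On deprivation NKD1 was lower in wt cells by -0.32 (SE 0.106, edgeR adjusted p = 0.0171), a call lost with DESeq2 (adjusted p = 0.0989), in 1 fit over the 36 libraries (0.0661) and without the third wt library (0.0889). In cis cells the difference was 0.16 and was not called.

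TCF7 encodes a TCF/LEF factor and lies at chr5:133450372-133487556. Its libraries read 11.6, 12.9 and 13.6 CPM in wt cells. They read 29.3, 32.3 and 30.98 CPM in cis cells. They read 23.4, 31.2 and 31.8 CPM in cis SSP cells, of which the lowest was library 25. The wt libraries lay below all of the others, while cis and cis SSP overlapped. TCF7 was higher in cis than in wt cells by 1.26 (SE 0.0693, edgeR adjusted p = 5.29e-21) and by 1.30, 1.21 and 0.81 under carboplatin, without serine and glycine and with both, all called. The difference of cis SSP from cis cells was -0.11 and was not called (95% interval -0.49 to 0.27), and without library 25 it was 0.04, also not called.

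Deprivation lowered TCF7 in wt and cis cells. The wt -SG libraries read 8.67, 11.03 and 8.88 CPM, lower by -0.41 (SE 0.0980, edgeR adjusted p = 0.00151). The cis -SG libraries read 21.4, 21.7 and 21.1 CPM, lower by -0.47 (SE 0.0604, edgeR adjusted p = 2.04e-09). The interaction was -0.04 (95% interval -0.27 to 0.18) and was not called. The cis SSP -SG libraries read 31.5, 19.7 and 27.9 CPM, with the lowest value in library 32, and were not called against complete medium, nor with both libraries 25 and 32 left out (-0.07). Against cis -SG cells they differed by 0.24, which was not called. The call was made in 1 fit over the 36 libraries (0.31, edgeR adjusted p = 0.0242) and without library 32 (0.43, edgeR adjusted p = 1.97e-07). With carboplatin as well, TCF7 was higher in cis SSP than in cis cells by 0.71 (SE 0.0634, edgeR adjusted p = 1.15e-07). LEF1, the other TCF/LEF factor among the members, had no count in 6 libraries of cis and cis carbo and 7 summed counts in cis -SG, at least 2.08-fold more against a floor of 3 counts over the group. It never passed the filter on low counts and reached 0.354 CPM at most.

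**Figure D3:**
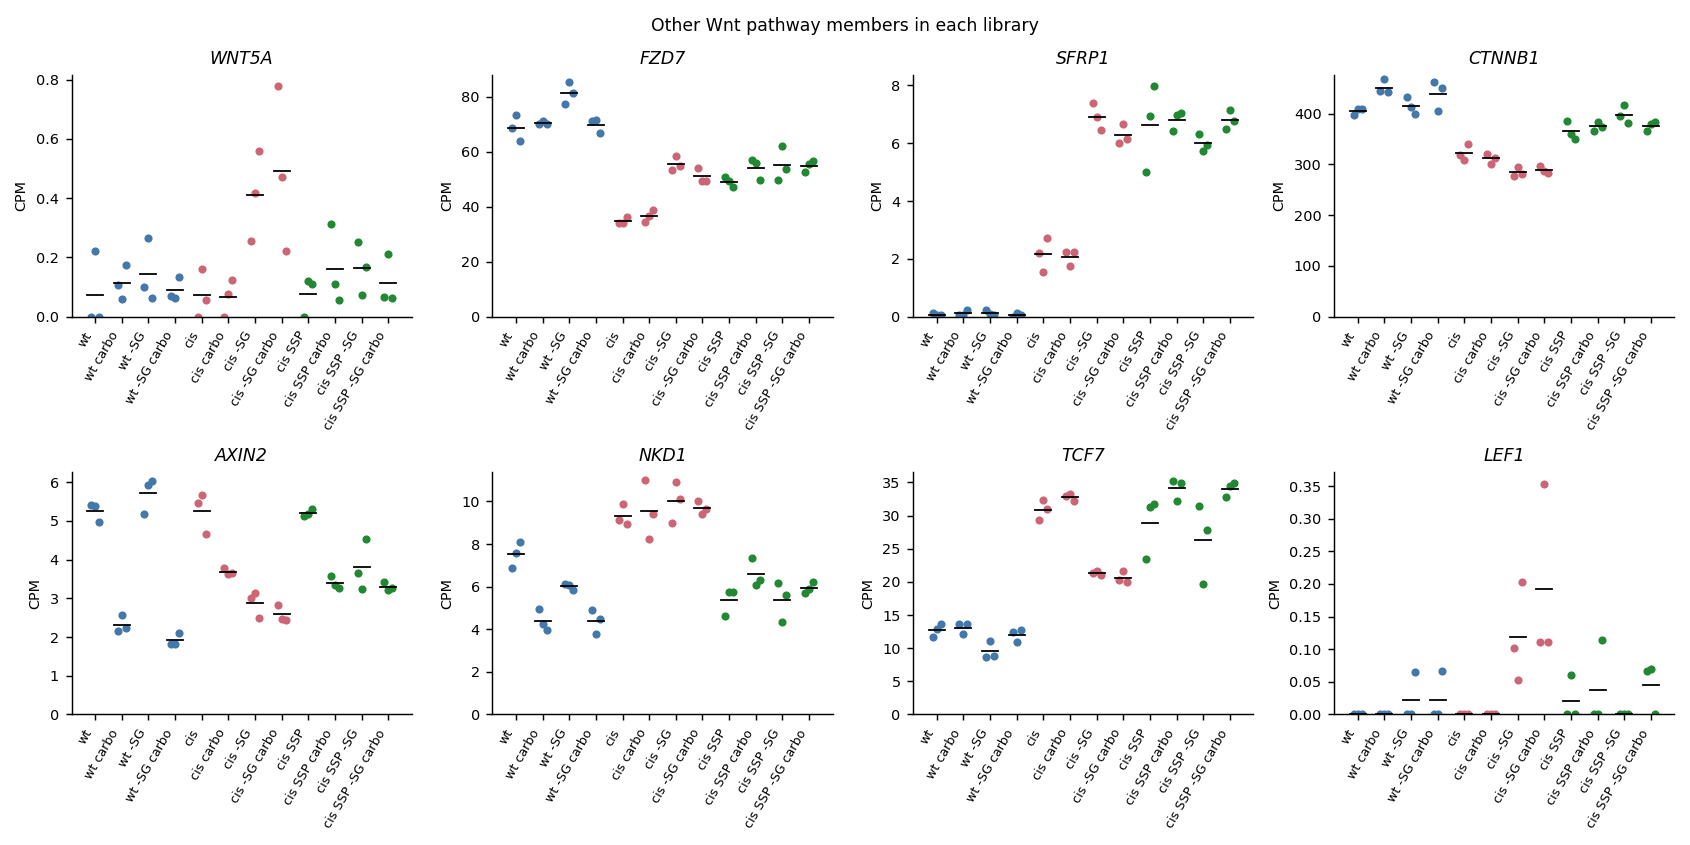
CPM of the other 8 members in each library by condition, on linear axes from 0, with wt in blue, cis in red and cis SSP in green; black lines are means of 3 libraries. SFRP1 and FZD7 are higher in cis -SG than in cis libraries, AXIN2 is lower in wt carbo and cis -SG libraries, and LEF1 and WNT5A stay below 1 CPM.

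**Figure D4:**
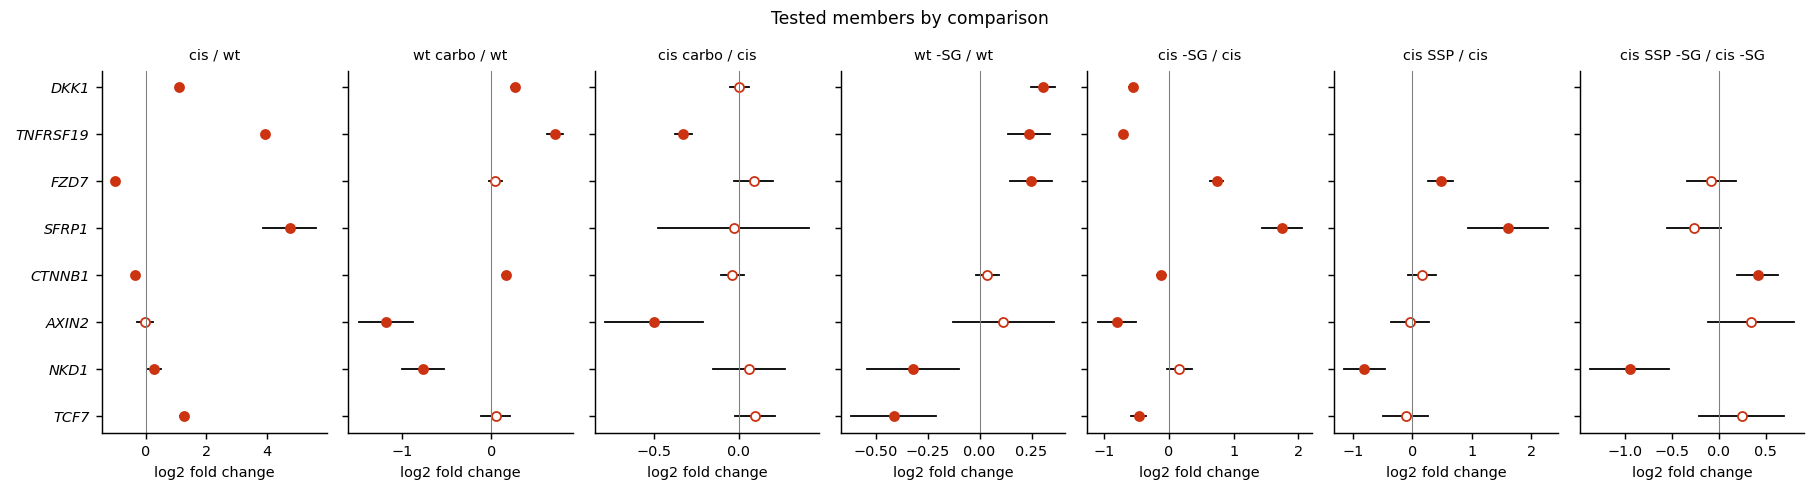
Log2 fold change of the 8 tested members in 7 comparisons, each panel on its own axis, as the edgeR estimate with its 95% interval; filled points are called at an adjusted p under 0.05 and no point is drawn where a gene was not tested or was chosen on that contrast. DKK1 and TNFRSF19 lie right of 0 for wt -SG / wt and left of 0 for cis -SG / cis.

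Counted over the comparisons, 7 of the 8 tested members were called between wt and cis cells in complete medium, 5 higher and 2 lower in cis, where 78.5% of all tested genes were called, 39.4% higher and 39.1% lower. The count of higher members was partly fixed beforehand. It includes DKK1 and TNFRSF19, picked through the same cis libraries. SFRP1 passed the filter on low counts through cis cells alone and could enter only as higher. For carboplatin 5 of 7 members were called in wt cells (77.8% of all genes) and 2 of 8 in cis cells (20.1%). For deprivation 5 of 7 were called in wt cells (49.2%) and 7 of 8 in cis cells (75%). Of the 6 members tested between cis SSP and cis cells, apart from DKK1 and TNFRSF19, 3 were called in complete medium (29.1%) and 2 without serine and glycine (44.8%). Without library 25 the first count was 4, where 9262 of 14154 of all tested genes were called. Without library 32 the second was 5, where 11125 of 14732 were. With so few members, no more is read from these counts. In cis SSP cells deprivation gave no call among 6 tested members or 68 tested genes of the Wnt list, and 3 calls among 13736 genes (0.0218%). At an unadjusted p under 0.05 it gave 6 of the 68 and 907 of all genes, and DESeq2 called 2 of the 68 and 143 of all genes. Without both libraries 25 and 32 edgeR called 31 of 67 list genes, CTNNB1 among them (0.15, edgeR adjusted p = 0.000146), and 4996 of 13925 of all genes.

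Of the 103 genes of the Wnt list, 24 were tested in no comparison, among them 7 ligands, 5 genes of the R-spondin module and 4 inhibitors that act outside the cell or at its surface. Between wt and cis cells 36 of 73 tested genes were higher and 33 lower in cis (94.5% called, against 78.5% of all tested genes), with a median log2 difference of 0.06 against 0.00 over all genes and a median absolute difference of 0.85 against 0.44. These values include DKK1 and TNFRSF19, chosen through the same cis libraries, and the list was chosen with earlier results of these data known. They also include SFRP1, SOST and TLE4, which passed the filter on low counts through wt or cis cells alone. The extracellular inhibitors, among which DKK1, SFRP1 and the cell-surface DKK receptors KREMEN1 and KREMEN2 were counted, were higher in 8 of 10 cases, where 39.4% of all tested genes were. That count was partly fixed beforehand, since DKK1 was chosen through the same cis libraries. SFRP1 and SOST, with 4 and 7 summed counts in wt cells, passed the filter through cis cells and could enter only as higher. SOST, which encodes the LRP5/6 inhibitor sclerostin, had 7 counts in wt and 1752 in cis cells, a ratio of 266 (95% counting interval 129 to 663). WLS, which carries Wnt ligands to the cell surface, was higher by 3.97 (SE 0.0930) and EPHB2, an ephrin receptor and intestinal target, by 3.47 (SE 0.0899). TLE4, a co-repressor of TCF factors, had 5864 counts in wt and 13 in cis cells, a ratio of 424 (248 to 797). TLE4 passed the filter through wt cells and could enter only as lower. LGR4, a receptor for R-spondins, was lower by -3.63 (SE 0.0391) and FZD2 by -2.41 (SE 0.0414).

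Between cis SSP and cis cells 19 of 68 tested genes of the list were higher and 10 lower, not counting DKK1 and TNFRSF19, against 15.8% and 13.3% of all tested genes. WLS and FZD6, with 18 and 15 summed counts in cis SSP cells, passed the filter on low counts through cis cells and could enter only as lower. Without library 25, 54 of 70 list genes were called, as were 9262 of 14154 of all tested genes. With library 25 in, the median difference was -0.02 against 0.01 over all genes. Extracellular inhibitors other than DKK1, KREMEN1 and KREMEN2 again included, were higher in 6 of 9 cases and lower in none, and without library 25 in 8 and 1. SOSTDC1, a secreted inhibitor related to sclerostin, was 2.83-fold higher, from 80.3 to 229.8 CPM. WNT5B, a ligand of the same subfamily as WNT5A, was higher by 4.08 (SE 0.213), from 5.78 to 99.4 ± 27.8 CPM (SD, n = 3), and FZD2 by 1.36 (SE 0.101). WLS went from 2138 to 18 counts, a ratio of cis to cis SSP of 111 (69.9 to 187). FZD6 went from 683 to 15 counts (42.5, 25.6 to 76.3), and FZD3 was lower by -3.36 (SE 0.128), from 19.7 to 1.93 CPM. Without library 25 the log2 differences were 1.57 for SOSTDC1, 3.87 for WNT5B, 1.32 for FZD2 and -3.28 for FZD3, all called, and the ratios were 89.6 for WLS and 50.9 for FZD6. In the medium without serine and glycine, 63 of 71 list genes were called without library 32, as were 11125 of 14732 of all tested genes. With library 32 in, 18 of 71 were higher and 18 lower in cis SSP than in cis cells in that medium, against 21.6% and 23.2% of all genes. WLS and FZD6 again passed the filter through the cis libraries of that medium and could enter only as lower. WNT5B (3.18, SE 0.232), SOSTDC1 (2.17, SE 0.0943) and KREMEN2, whose product binds DKK1 (1.93, SE 0.363, with 51.5 ± 28.2 CPM in cis SSP -SG libraries, SD, n = 3), were higher there, while WLS fell from 36.7 to 0.384 CPM, FZD6 from 19.8 to 0.241 CPM and FZD3 from 25.6 to 2.40 CPM. Without library 32 WNT5B differed by 2.90, SOSTDC1 by 2.20 and KREMEN2 by 1.41, all called, and the cis SSP -SG means were 0.502 CPM for WLS, 0.288 CPM for FZD6 and 2.64 CPM for FZD3.

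Under carboplatin 30 of 73 list genes were called higher and 24 lower in wt cells, against 38.9% and 39% of all tested genes. In cis cells 6 of 70 were higher and 17 lower, against 9.27% and 10.8%. In wt cells receptors were lower in 8 of 13 cases and ligands higher in 5 of 9. Only 7 ligands passed the filter on low counts for deprivation in wt cells. Some of the 9 therefore entered through the wt carbo libraries and could be called only as higher. WNT9A, a ligand, rose from 3.27 to 68.0 CPM (4.38, SE 0.0740), and CCND1, which encodes cyclin D1, from 241 to 630.0 CPM (1.39, SE 0.0198). EPHB3 rose by 0.99 (SE 0.0896). TCF7L1, a repressive TCF factor, was lower by -1.55 (SE 0.0631), FZD4 by -1.16 (SE 0.0948) and the Dishevelled gene DVL2 by -1.12 (SE 0.0347). In cis cells WNT9A (0.71, SE 0.137), NKD2 (0.52, SE 0.118) and SOST (0.38, SE 0.0555) rose, and NKD2 lost its call in 1 fit over the 36 libraries (edgeR adjusted p = 0.101). Among list genes other than the members, TCF7L1 (-0.52, SE 0.124), DKK3 (-0.41, SE 0.109) and SOSTDC1 (-0.40, SE 0.0416) were lower. DKK3 lost its call with DESeq2 (adjusted p = 0.0823) and without the second cis library (edgeR adjusted p = 0.0583). The responses differed between the lines for 44 of 76 tested list genes, 16 higher and 28 lower, where 57.6% of all genes were called, 30.3% higher and 27.2% lower. The interaction was -3.67 for WNT9A (SE 0.177) and -1.35 for CCND1 (SE 0.0331), and it was called lower for SOST, which had 7 summed counts in untreated wt cells. It was 1.04 for FZD4 (SE 0.121), 1.03 for TCF7L1 (SE 0.143) and 0.89 for DVL2 (SE 0.0510).

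On deprivation 24 of 69 list genes were called higher and 13 lower in wt cells, against 24.1% and 25.1% of all tested genes. In cis cells 31 of 73 were higher and 32 lower, against 37.6% and 37.4%. In cis cells 8 of 9 tested ligands were higher, while nuclear factors were lower in 6 of 10 cases and the 3 tested genes of the R-spondin module were all lower. Only 7 ligands passed the filter on low counts for carboplatin in cis cells. Some of the 9 therefore entered through the cis -SG libraries and could be called only as higher. APC2, of the complex that destroys β-catenin, rose by 1.42 (SE 0.0737), WNT3A by 1.35 (SE 0.125) and WNT9A by 1.19 (SE 0.125). LGR4 was lower by -1.51 (SE 0.0853), WNT10B by -1.19 (SE 0.0803) and KREMEN2 by -1.15 (SE 0.0733). In wt cells the called changes were smaller. NOTUM, a secreted enzyme that inactivates Wnt ligands, rose by 0.64 (SE 0.183), TNKS, whose product destabilises axin, by 0.63 (SE 0.0354) and TLE4 by 0.34 (SE 0.0314). FZD4 (-0.43, SE 0.0825), KREMEN2 (-0.35, SE 0.0528) and ROR2 (-0.32, SE 0.0853) were lower. In 1 fit over the 36 libraries NOTUM and KREMEN2 lost their calls, with edgeR adjusted p of 0.0769 and 0.276. The responses of wt and cis cells differed for 48 of 75 list genes, 23 higher and 25 lower, where 54% of all genes were called, 27.1% higher and 26.9% lower. The interaction was 1.51 for WNT5B (SE 0.281), 1.33 for APC2 (SE 0.128) and 1.31 for WNT9A (SE 0.195), and it was -1.59 for LGR4 (SE 0.0746), -1.01 for WNT10B (SE 0.132) and -0.95 for PORCN (SE 0.211), which encodes the enzyme that lipidates Wnt ligands.

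**Figure D5:**
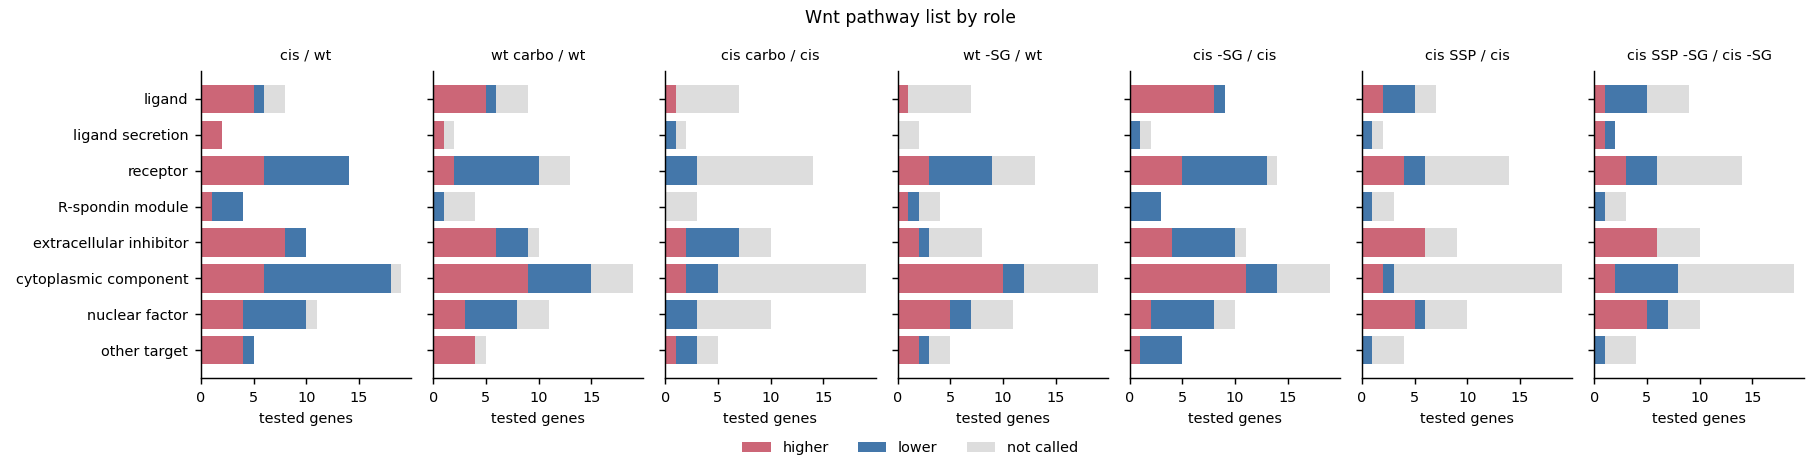
Tested genes of the Wnt list by role in 7 comparisons, as stacked bars of genes called higher (red), called lower (blue) and not called (grey) by edgeR; DKK1 and TNFRSF19 are left out of both cis SSP panels. In the panel of cis SSP / cis the extracellular inhibitors, KREMEN1 and KREMEN2 included, hold 6 genes called higher and none called lower, and in that of cis -SG / cis the ligands hold 8 called higher and 1 called lower. Some of these ligands passed the filter on low counts only through the cis -SG libraries.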

How the data were processed

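Counts per gene were deposited by the authors, who aligned single-end reads of 36 libraries with STAR to GRCh37.p13 and counted them on exons with HTSeq and GENCODE. The strand setting and the treatment of reads with several alignments are not given in the sources used here, so overlapping genes such as DKK1 and PRKG1-AS1 are less certain. Rows naming no gene were left out (3). The row of reads on no feature held 4.21% to 17.9% of its own reads plus the counts on genes. Libraries 23 and 24, of cis -SG carbo, held 17.9% and 14.9%, and the highest value apart from these was 9.31%. Symbols came from GENCODE mapped to GRCh37. Each comparison was fitted on its own libraries with edgeR 4.0.16 in R 4.3.3 (TMM, filterByExpr, robust glmQLFit, glmQLFTest, adjusted p under 0.05 over all genes tested), and responses were compared by an interaction term. SE is the absolute log2 value divided by the square root of F. Ratios of summed counts have exact 95% intervals. Alternatives were DESeq2 1.42.0, edgeR with the size factors of DESeq2 or with total counts alone, no filter, at least 10 counts in every library, 1 fit over 36 libraries and each library left out; leaving out both libraries 25 and 32 was added after seeing the data. The members and lists were chosen with earlier results of these data known. Beside the members, the text names by rule at most 3 called genes of the list in each direction and comparison with a mean of at least 50 counts, the 3 genes most like DKK1 or TNFRSF19 among those with at least 5 CPM in 1 condition, and neighbours within 1 Mb if 5 or fewer were tested. On simulated counts with 200 genes changed by 1 on the log2 scale, edgeR recovered 200 of them between wt and cis (14158 genes, 8 false calls), 171 between cis SSP and cis (13531 genes, 7 false calls) and 196 of the interaction for carboplatin (14796 genes, 11 false calls). Some neighbours of TNFRSF19 are not reported here by name.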

Additional observations from a re-analysis of the deposited data

Results flagged for a closer look

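Of 8 tested members, the response of 5 to carboplatin and of 6 to deprivation differed between wt and cis cells by the interaction term of the edgeR fit. Over all tested genes the interaction was called for 57.6% under carboplatin and 54% on deprivation. With so few members, nothing particular to them is read from these counts. For carboplatin the difference of the cis from the wt response was -0.26 for DKK1, -1.03 for TNFRSF19, 0.69 for AXIN2, 0.83 for NKD1 and -0.19 for CTNNB1. For deprivation it was -0.85 for DKK1, -0.93 for TNFRSF19, -0.91 for AXIN2, 0.49 for NKD1, 0.50 for FZD7 and -0.14 for CTNNB1. In 1 fit over the 36 libraries the adjusted p was 0.148 for DKK1 under carboplatin and 0.0554 for NKD1 on deprivation.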

How the results depend on the processing

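Of 130 log2 differences of members and named genes, none that was called changed sign under the alternatives run, while 16 that were not called changed sign in at least 1 of them and stayed uncalled there. Between cis SSP and cis cells the count of called list genes, 29, was 44 in 1 fit over the 36 libraries and ran from 21 to 54 with each library left out, the highest without library 25. Without serine and glycine the count of 36 ran from 27 to 63, the highest without library 32. In 1 fit over the 36 libraries carboplatin in cis cells gave 9 in place of 23, and deprivation in wt cells 11 in place of 37. Deprivation in cis SSP cells gave 2 with DESeq2, 11 in 1 fit over the 36 libraries and 31 with both libraries 25 and 32 left out, in place of 0. Calls over all tested genes shifted too. Between cis SSP and cis cells they went from 3990 to 9262 without library 25, and without serine and glycine from 6421 to 11125 without library 32. For deprivation in cis SSP cells they went from 3 to 4996 without both. In 1 fit over the 36 libraries they went from 2702 to 401 for carboplatin in cis cells and from 7021 to 2821 for deprivation in wt cells. The cause of these shifts was not tested. Refitting with total counts in place of TMM moved the log2 differences of the list genes by a median of -0.14 between cis SSP and cis cells without serine and glycine and with carboplatin, by 0.13 between cis and wt cells in that medium, and by less than 0.1 in each of the other comparisons. With this scaling the 130 differences kept their side of the threshold and 4 uncalled ones changed sign, while 17 condition means of members moved by more than 1 SD and 103 did not. Among single genes, calls were lost for 8 results in 1 fit over the 36 libraries, for 4 with DESeq2 and for 6 with a library left out. No paired analysis was possible because the labels give no replicate numbers within a condition. Depth limits statements on WNT5A and LEF1, and on DKK1, TNFRSF19 and SFRP1 where a library held few counts.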
